A study of Sus scrofa with 67 samples.

Results

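Genes whose transcript level moved one way in the endometrium and the other way in the oviduct between oestrus and the mid-luteal phase of the pig were described here. For each gene the mean CPM (a gene's count scaled to the total of its library) of day 9 plus 1 was divided by that of day 0 plus 1, and a gene was a member where this ratio was at least 2 in one of the tissues and at most 0.5 in the other, while the ovary stayed between 0.5 and 2. The members were thus chosen by the measured values of days 0 and 9. The rule found 113 genes among 25322 in the table. Of these, 31 rose in the endometrium and fell in the oviduct and are called endometrium-up, and 82 fell in the endometrium and rose in the oviduct and are called oviduct-up. A gene symbol was found for 85 members, and 28 carried an Ensembl identifier only. Another 244 genes passed the same limits in one direction in both tissues and not in the ovary, of which 91 rose and 153 fell.

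The study followed 3 reproductive tissues of cycling Landrace × Yorkshire gilts with RNA-seq every 3 days from day 0, the onset of oestrus, to day 18. The labels name no treatment. The tissues were the endometrium separated from the myometrium, the ampulla of the oviduct and the whole ovary, so each library mixes all cell types of its piece of tissue. The count table held 66 libraries in 21 groups of 2 to 4, 1 group for each tissue and day, with 3 libraries in most endometrial groups. Per the study's methods 3 gilts a day gave all 3 tissues, so tissues of one day share animals, but the labels do not tie libraries to animals. The groups of 4 on days 12 and 15 hold more libraries than those gilts, so some libraries may share an animal. Each library was tested as a replicate, and p-values measure the spread between libraries. They are too small where libraries of 1 group share an animal. In a comparison between tissues, animals shared across the tissues can make them too small or too large.

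The oestrous cycle of the pig alternates between an oestrogen-led follicular phase around ovulation and a progesterone-led luteal phase, when corpora lutea occupy the ovary. The endometrium prepares in the luteal phase to feed and receive embryos, and when no pregnancy is signalled, prostaglandin F2α from the endometrium ends luteal life late in the cycle. The ampulla of the oviduct is the site of fertilisation, and its mucosa of ciliated and secretory cells lies on a coat of smooth muscle. Both tissues carry receptors for oestradiol and progesterone and see the same circulating hormones.

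Total counts per library ran from 8962103 to 13442083, so that 3 counts, taken as the limit of detection, stood for 0.223 to 0.335 CPM, which covers counting error only. The labelled tissues carried their markers. Summed CPM of 6 epithelial markers was at least 2211 in every endometrial and 1315 in every oviductal library, but also 716 to 1018 in 4 of the ovarian libraries (3 of day 15 and 1 of day 18), against at most 50.3 in the other ovarian libraries. In the oviduct the summed level of 7 smooth muscle markers ran from 10715 to 24251 CPM (median 16689) on days 3 and 18 and from 1960 to 13536 CPM (median 5322) on days 6 and 12. On the days of the rule the same sum was 13345 to 25030 CPM on day 0 and 3349 to 6325 CPM on day 9, and the endometrial sum of 7 fibroblast markers was 22548 to 25857 CPM on day 0 and 5799 to 11914 CPM on day 9. Summed CPM of 3 endothelial markers in the endometrium had a median of 507 on days 3 and 18 and of 204 on days 6 and 12. Summed CPM of 4 granulosa and luteal markers in the oviduct had medians of 18.2 and 85.9 on these days, with 20.9 to 64.8 on day 0 and 142 to 253 on day 9. The part of these marker levels in the results below was not tested, and in pieces of tissue fewer cells of a type and less RNA per cell cannot be told apart.

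**Figure D1:**
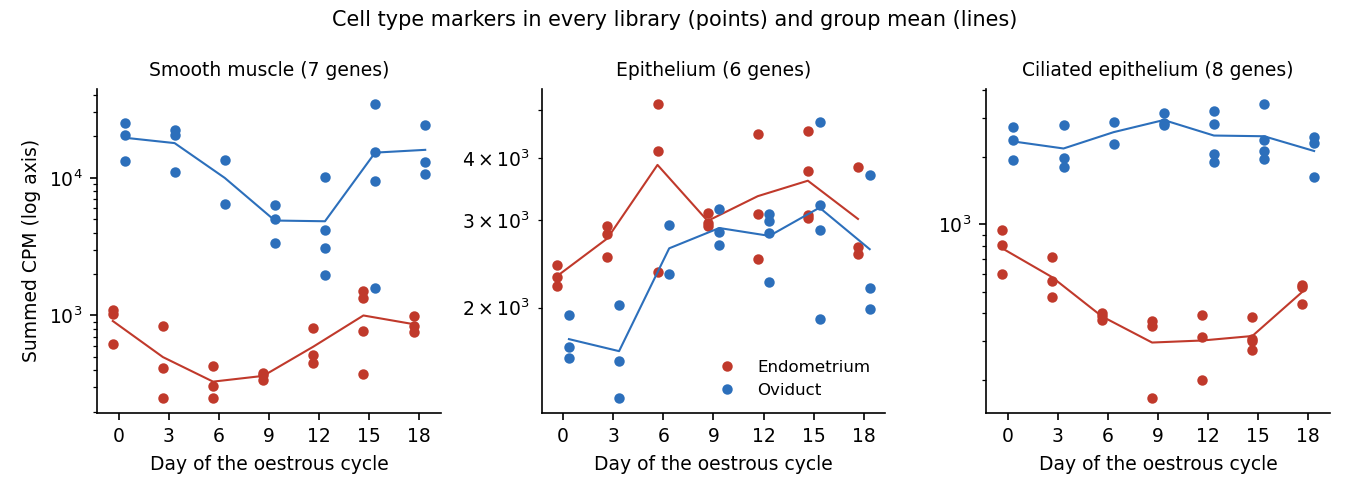
Summed CPM (log axis) of 7 smooth muscle, 6 epithelial and 8 ciliated cell markers in every endometrial (red) and oviductal (blue) library by day, with lines through group means. Smooth muscle markers of the oviduct were lowest around days 9 and 12, and ciliated cell markers stood higher in the oviduct than in the endometrium on every day.

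The values that chose the members are given as a description, without a test. Among endometrium-up members the endometrial log2 ratio of day 9 to day 0 ran from 1.02 to 8.07 (median 1.67) and the oviductal log2 ratio from -3.35 to -1.0 (median -1.46). Among oviduct-up members the endometrial log2 ratio ran from -7.60 to -1.0 (median -1.49) and the oviductal log2 ratio from 1.0 to 4.20 (median 1.31). CDH17, an adhesion molecule of the cadherin family, spanned the widest range of the first set, with 3.54, 2.62 and 1.58 CPM in the endometrial libraries of day 0 and 875, 686 and 1310 CPM in those of day 9. In the oviduct the same gene had 5.28, 5.26 and 4.67 CPM on day 0 and 0.108, 0.648 and 0.403 CPM on day 9. MMP7, the matrix protease matrilysin, was its counterpart in the second set, with 424, 311 and 235 CPM in the endometrium on day 0 and 0.814, 0.99 and 0.204 CPM on day 9. Its oviductal libraries had 0.299, 2.44 and 0.346 CPM on day 0 and 14.0, 21.4 and 41.7 CPM on day 9. For both genes no library of day 9 overlapped one of day 0 in either tissue. Some of the lower values were at, below or near the limit of detection. These were in the oviduct for CDH17 on day 9 and MMP7 on day 0, and in the endometrium for MMP7 on day 9.

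Others changed from levels that were high in both tissues. CREB3L4 had a mean of 52.7 CPM in the endometrium on day 0 and 169 CPM on day 9, and 119 and 12.9 CPM in the oviduct. TP53INP2 had 92.7 and 320 CPM in the endometrium and 108 and 21.1 CPM in the oviduct. GRB7 had 98.7 and 18.8 CPM in the endometrium and 31.3 and 145 CPM in the oviduct. In each of these 3 genes the tissue with the lower mean on day 0 had the higher mean on day 9. HDC was higher in the endometrium on both days, with 35.5 ± 3.37 and 485 ± 176 CPM in the endometrium (SD, n = 3) and 12.4 ± 5.30 and 1.73 ± 2.16 CPM in the oviduct.

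The same separation of all day 9 from all day 0 libraries in both tissues held for 20 of the 31 endometrium-up and 67 of the 82 oviduct-up members, which the rule itself favours. Among all genes with a count in the endometrium, 15.7% lay wholly above and 27.2% wholly below on day 9, and in the oviduct 29.4% above and 8.25% below. Just inside the rule were ADGRB3, with an oviductal ratio of 2.002, ENSSSCG00000027982, with an oviductal ratio of 0.499, PTPN13 with an endometrial ratio of 0.498 and HDC with an ovarian ratio of 0.502. Just outside were KIT, with an ovarian ratio of 2.003, RASGEF1A, with an oviductal ratio of 0.501, SEC14L5, with an oviductal ratio of 1.996, and ENSSSCG00000006334, with an ovarian ratio of 0.498. The balance of the 2 directions depended on scaling. With CPM scaled by TMM (trimmed mean of M values, which sets most genes as level) the rule found 55 endometrium-up and 41 oviduct-up genes, of which 65 were among the 113. On column totals the median gene lay 0.25 higher on day 9 than on day 0 in the oviduct and 0.13 lower in the endometrium (log2). When each library of days 0 and 9 was left out in turn, 12 endometrium-up and 25 oviduct-up members were kept by the rule in all 18 cases.

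**Figure D2:**
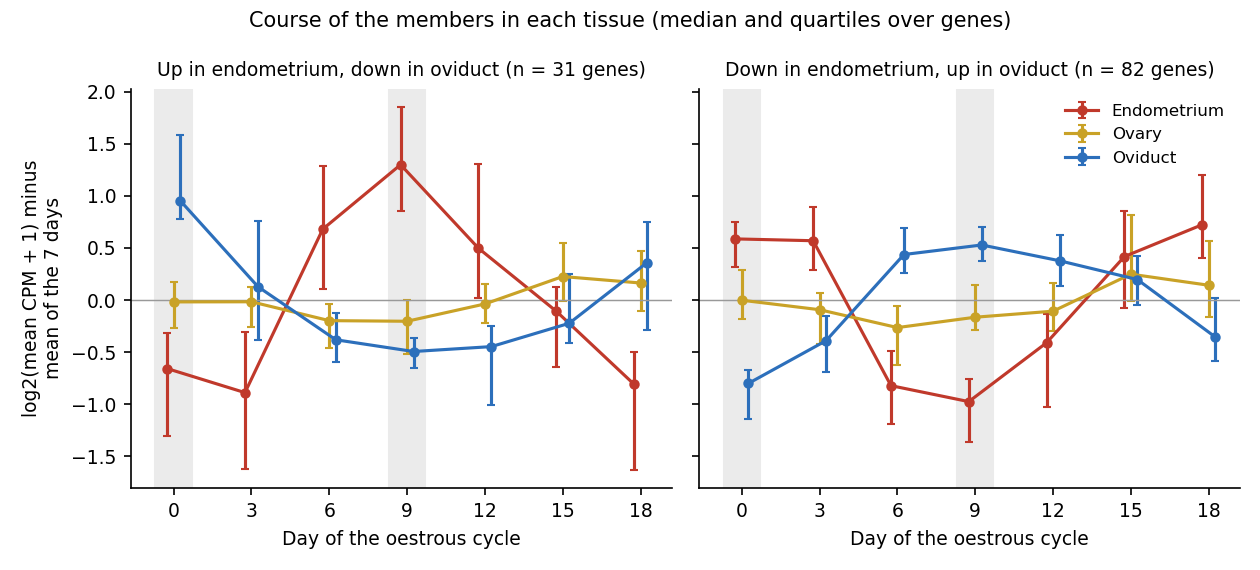
Course of 31 endometrium-up (left) and 82 oviduct-up members (right), as log2(mean CPM + 1) of each day minus the mean of the 7 days, with points at the median and bars at the quartiles over genes for each tissue. Grey bands mark days 0 and 9, which chose the members. Endometrium and oviduct ran in opposite directions on days 6 and 12, and the ovary stayed near 0.

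The endometrial level of endometrium-up members was highest on day 6, 9 or 12 in 31 of 31 genes, with 19 of the peaks on day 9. Their oviductal level was highest on day 0, 3 or 18 in 28 of 31 genes. For oviduct-up members the endometrial level was lowest on day 6, 9 or 12 in 78 of 82 genes and the oviductal level was highest on 1 of these days in 67 of 82. Days 0 and 9 took part in these counts and fix part of them, so the tests that follow left both days out and compared days 6 and 12 with days 3 and 18. A gene was called where the adjusted p (Benjamini-Hochberg over all genes) of edgeR's quasi-likelihood test was under 0.05.

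In the endometrium 19 of 31 endometrium-up members were called higher on days 6 and 12 than on days 3 and 18, where 12.4% of the 15257 genes tested were called higher. Of the 82 oviduct-up members, 59 were called lower, against 12.5% of all genes. In this comparison no member was called in the direction opposite to the rule, and 1 member of each set had too few counts to be tested. Median log2 fold changes were 1.57 and -1.33, against -0.02 over all genes tested. Against day 18 alone, 1 oviduct-up member was called higher in the endometrium, where 8.59% of all genes were. All endometrial libraries of days 6 and 12 lay above all those of days 3 and 18 for 12 endometrium-up members, as for 3.41% of all genes, and below them for 30 oviduct-up members, as for 5.76%. On these column totals the median endometrial gene lay 0.13 (log2) lower on days 6 and 12.

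HDC, which makes histamine from histidine, ran from 1.78 to 27.4 CPM (median 9.66) in the endometrium on days 3 and 18 and from 41.8 to 613 CPM (median 206) on days 6 and 12. These endometrial libraries did not overlap, and the log2 fold change was 4.21 (SE 0.84, adjusted p = 0.00326). CDH17 ran from 3.01 to 7.63 CPM (median 5.0) on days 3 and 18 and from 10.1 to 207 CPM (median 117) on days 6 and 12, again without overlap (log2 fold change 4.63, SE 0.79, adjusted p = 0.00138). PDZK1, a scaffold that holds transporters at the apical membrane, went from at most 4.99 CPM to at least 7.43 CPM. Its log2 fold change was 4.39 (SE 0.73, adjusted p = 0.00126). ADAMTS12, a secreted metalloprotease, had medians of 7.75 and 54.0 CPM, and the ranges overlapped slightly, at 4.04 to 20.2 and 19.3 to 88.8 CPM (log2 fold change 2.46, adjusted p = 0.00147). CDH16, another cadherin, had endometrial medians of 6.11 and 6.98 CPM with wide overlap and was not called (log2 fold change 0.34, SE 0.60). Without the third endometrial library of day 6 that value became -0.74. FGFBP1, which releases fibroblast growth factors from the matrix, was not called in the endometrium either, at medians of 2.28 and 3.44 CPM.

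Among the other named endometrium-up members, THEM5 and ACOT7 are thioesterases that split acyl-CoA. THEM5 ran from 0.261 to 4.16 CPM in the endometrium on days 3 and 18 and from 38.7 to 158 CPM on days 6 and 12, without overlap, and had a log2 fold change of 6.09 (SE 1.06, adjusted p = 0.00147). ACOT7 had endometrial medians of 34.1 and 91.5 CPM with overlapping ranges (log2 fold change 1.41, SE 0.31, adjusted p = 0.00599). SLC2A8, the intracellular glucose transporter GLUT8, ran from 11.6 to 21.6 CPM and from 31.4 to 180 CPM. The 2 sets of libraries lay apart, with a log2 fold change of 2.27 (SE 0.45, adjusted p = 0.00326). SLC25A1, the mitochondrial citrate carrier that exports citrate for fatty acid synthesis, was chosen for mention after its values were seen, and ran from 61.4 to 138 CPM and from 148 to 361 CPM (log2 fold change 1.56, SE 0.35, adjusted p = 0.00648).

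Among regulators, CREB3L4, a transcription factor released from the endoplasmic reticulum, ran from 8.32 to 26.2 CPM in the endometrium on days 3 and 18 and from 87.0 to 277 CPM on days 6 and 12. No library overlapped (log2 fold change 3.23, SE 0.66, adjusted p = 0.00377). ZNF750, a transcription factor of epithelial differentiation, had 0 to 2.60 CPM and 13.9 to 52.3 CPM, a log2 fold change of 5.22 (SE 1.0, adjusted p = 0.00262). TP53INP2, a regulator of autophagy, had overlapping endometrial ranges, 27.4 to 138 and 53.9 to 335 CPM, and was not called (log2 fold change 0.75, SE 0.40, adjusted p = 0.18).

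**Figure D3:**
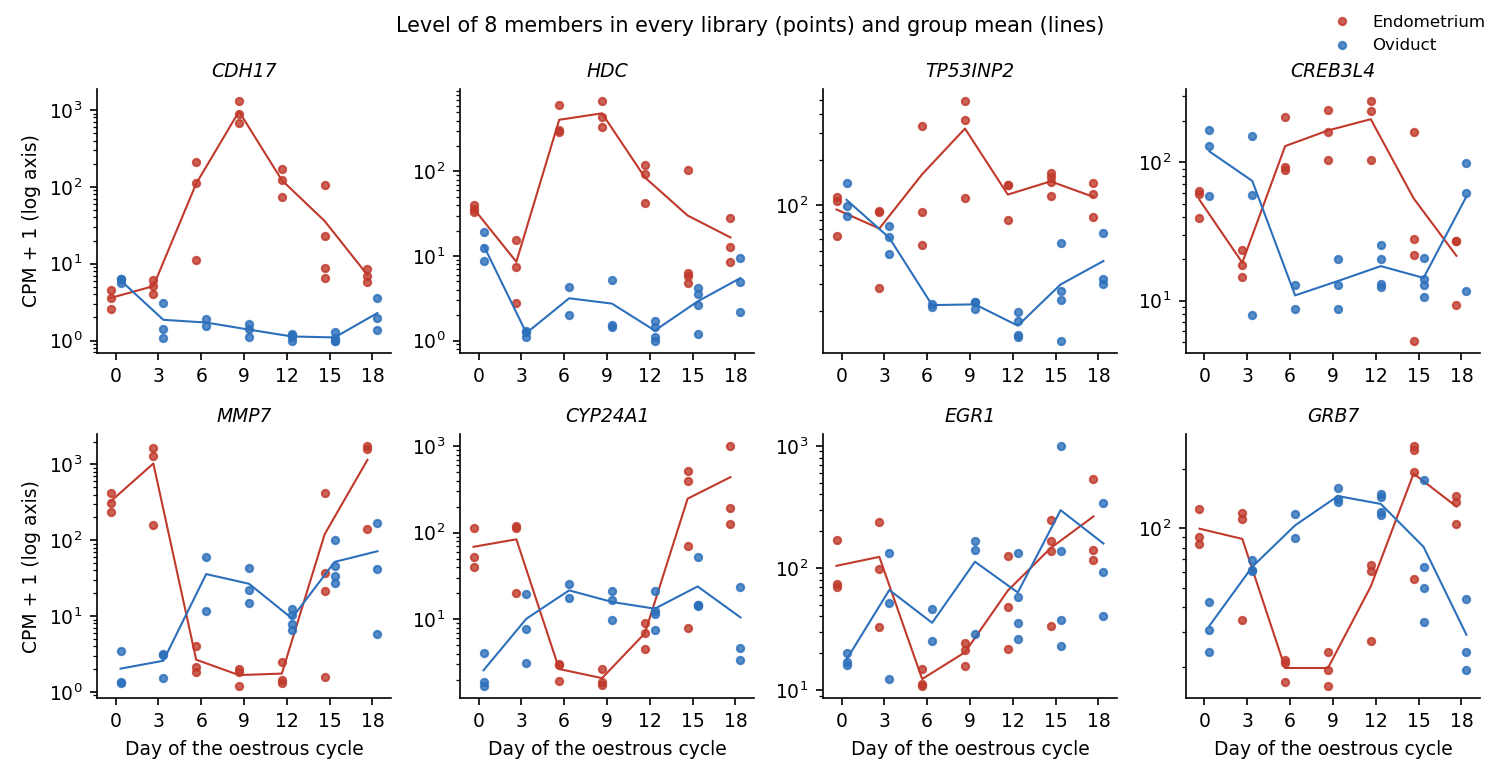
CPM + 1 (log axis) of 4 endometrium-up members (top) and 4 oviduct-up members (bottom) in every endometrial (red) and oviductal (blue) library by day, with lines through group means. The lines of CREB3L4, MMP7, CYP24A1 and GRB7 cross before day 6 and again late in the cycle, and 1 endometrial library of day 15 stayed high for CDH17, HDC and CREB3L4.

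Among oviduct-up members, MMP7 ran from 139 to 1730 CPM (median 1435) in the endometrium on days 3 and 18 and from 0.32 to 3.03 CPM (median 0.977) on days 6 and 12. The ranges were far apart, with a log2 fold change of -9.74 (SE 1.44, adjusted p = 0.000738). CYP24A1, which inactivates vitamin D, fell in the endometrium from 19.1 to 998 CPM (median 121) to 0.95 to 8.12 CPM (median 2.78), without overlap (log2 fold change -5.84, SE 0.98, adjusted p = 0.00131). DPP4, a peptidase of the cell surface, had medians of 72.2 and 6.62 CPM, with ranges of 9.04 to 179 and 3.92 to 11.1 CPM that overlapped (log2 fold change -2.85, SE 0.59, adjusted p = 0.00416). PROCR, the receptor of protein C, ran from 6.02 to 13.8 CPM and from 1.54 to 3.12 CPM, and these libraries lay apart (log2 fold change -1.94, SE 0.34, adjusted p = 0.0016). PROCR is also known from endothelium, whose summed markers had the lower endometrial median on days 6 and 12 given above.

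MYC, a transcription factor of cell growth, ran from 214 to 374 CPM on days 3 and 18 and from 26.0 to 128 CPM on days 6 and 12, without overlap (log2 fold change -2.23, SE 0.43, adjusted p = 0.00258). EGR1, an immediate-early factor, had medians of 127 and 17.2 CPM and overlapping ranges (log2 fold change -2.61, SE 0.64, adjusted p = 0.00948). MYCN, a relative of MYC, was low on both pairs of days, with medians of 1.61 and 1.24 CPM and a log2 fold change of -0.16 (SE 0.42, adjusted p = 0.814). The sign of that MYCN value turned without any 1 of 4 endometrial libraries, with values up to 0.11. Chosen after their values were seen, the AP-1 partners JUNB and MAFF were called lower in the endometrium, with log2 fold changes of -2.27 (SE 0.60, adjusted p = 0.0143) and -1.63 (SE 0.55, adjusted p = 0.0431). IRF1, a transcription factor of interferon responses and the only member on the list of complement and innate defence genes, ran from 61.0 to 124 CPM and from 29.6 to 73.1 CPM, with slight overlap (log2 fold change -0.82, SE 0.17, adjusted p = 0.00453).

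GRB7, an adaptor of receptor tyrosine kinases, had medians of 115 and 23.4 CPM with overlapping ranges (log2 fold change -1.67, SE 0.38, adjusted p = 0.00679). RASGEF1B, an exchange factor of Ras-like GTPases, ran from 13.5 to 79.8 CPM and from 3.63 to 12.6 CPM (log2 fold change -2.33, SE 0.47, adjusted p = 0.0035). TNS4, a tensin of focal adhesions, ran from 13.5 to 133 CPM and from 0.747 to 3.71 CPM (log2 fold change -3.60, SE 0.83, adjusted p = 0.00707). For RASGEF1B and TNS4 the libraries lay apart, for RASGEF1B by less than the shift of the median endometrial gene given above. PKHD1, which encodes fibrocystin of the primary cilium, and KIF12, a kinesin, had log2 fold changes of -2.89 (SE 0.61, adjusted p = 0.00453) and -1.15 (SE 0.29, adjusted p = 0.0115). Among members chosen after their values were seen, the receptor kinase MET ran from 99.3 to 236 CPM and from 23.1 to 85.4 CPM, without overlap (log2 fold change -1.79, SE 0.34, adjusted p = 0.00271). Its relative MST1R was called lower too, with medians of 71.0 and 32.0 CPM (log2 fold change -1.01, SE 0.19, adjusted p = 0.00272). FZD10, a WNT receptor, ran from 28.7 to 119 CPM and from 4.05 to 9.90 CPM (log2 fold change -2.97, SE 0.39, adjusted p = 0.000459).

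Further oviduct-up members were chosen for mention after their values were seen. OXTR, the oxytocin receptor, ran from 6.86 to 86.2 CPM in the endometrium on days 3 and 18 and from 0.713 to 4.54 CPM on days 6 and 12, without overlap (log2 fold change -3.05, SE 0.72, adjusted p = 0.00795). Its oviductal level was at most 4.69 and 12.7 CPM, with medians of 0.463 and 0.316 CPM near the limit of detection. CXCL2, a chemokine that attracts neutrophils, ran from 17.6 to 66.8 CPM and from 1.36 to 4.58 CPM in the endometrium (log2 fold change -3.75, SE 0.55, adjusted p = 0.000693). DEFB115, a beta-defensin, ran from 1.97 to 14.5 CPM in the endometrium on days 3 and 18 and from 0 to 0.106 CPM on days 6 and 12, all of the latter below the limit of detection, so no fold is given. In the oviduct DEFB115 ran from 9.93 to 236 and from 50.6 to 281 CPM, ranges that overlapped. CHGA, the chromogranin of endocrine granules, had endometrial medians of 51.2 and 6.21 CPM (log2 fold change -2.33, SE 0.57, adjusted p = 0.0094). The ligand ADM (adrenomedullin) and the interferon gamma receptor IFNGR1 were not called in the endometrium, with adjusted p = 0.176 for both and log2 fold changes of -1.20 (SE 0.63) and -0.64 (SE 0.33).

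In the oviduct no member was called on days 6 and 12 against days 3 and 18, and of all 15518 genes tested 0.0129% were called higher and 0.0322% lower. At an unadjusted p under 0.05, 17 of 31 endometrium-up members were lower, where 13.8% of all genes were, and 29 of 82 oviduct-up members were higher, where 10.1% of all genes were. Of the endometrium-up members 2 had too few counts for this test. The oviductal libraries of days 6 and 12 lay wholly below those of days 3 and 18 for 5 endometrium-up members, as for 0.296% of all genes, and wholly above for 15 oviduct-up members, as for 6.5%. On these column totals the median oviductal gene lay 0.22 (log2) higher on days 6 and 12, and 0.0037 higher with TMM. DESeq2's Wald test called 12 endometrium-up members lower and 21 oviduct-up members higher, where it called 5.97% of genes lower and 3.61% higher. With days 6 and 12 set against day 18 alone, edgeR called 12 lower and 15 higher, where 11.4% and 4.81% of all genes were called. Against day 3 alone it called 1 and 2, where 0.219% of genes were called lower and 0.0451% higher.

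The oviductal counts also turned on single libraries. Without the first oviductal library of day 18 the counts were 8 lower endometrium-up and 22 higher oviduct-up members, where 5.69% of genes were called lower and 3.65% higher. Without the second of day 15 they were 7 and 14, where 2.5% and 1.37% of genes were. Leaving out the third library of day 3 gave 3 and 0 (0.407% and 0.0839% of genes), and leaving out the third of day 15 gave 1 and 0 (0.0388% and 0.0194%). With day 15 out of the fit, an alternative added after the data were seen, 10 endometrium-up members were called lower and 12 oviduct-up members higher, where 2.01% and 1.15% of genes were. Summed smooth muscle markers were 10715 CPM in the first library of day 18 and 20411 CPM in the third of day 3. They were 1573 CPM in the second library of day 15 and 34581 CPM in the third. The part of these marker levels in the counts was not tested.

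Named members showed how the oviductal values lay. TP53INP2 ran from 29.1 to 72.1 CPM in the oviduct on days 3 and 18 and from 12.5 to 21.4 CPM on days 6 and 12, without overlap (log2 fold change -1.77, SE 0.34, adjusted p = 0.0583). SLC2A8 ran from 5.50 to 13.1 and from 1.90 to 4.71 CPM, and SLC25A1 from 124 to 258 and from 90.7 to 108 CPM, both without overlap (adjusted p = 0.0583 for both). CREB3L4 had oviductal medians of 58.2 and 12.1 CPM with wide overlap (log2 fold change -2.63, SE 0.67, adjusted p = 0.0721). For HDC the oviductal ranges, 0.0902 to 8.34 and 0 to 3.34 CPM, overlapped and lay partly below the limit of detection.

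GRB7 ran from 18.2 to 68.4 CPM on days 3 and 18 and from 88.3 to 148 CPM on days 6 and 12 in the oviduct (log2 fold change 1.22, SE 0.33, adjusted p = 0.0785). KIF12 ran from 31.3 to 51.3 and from 78.5 to 127 CPM (log2 fold change 0.92, SE 0.18, adjusted p = 0.0583), RASGEF1B from 15.0 to 41.1 and from 46.8 to 51.7 CPM, and MET from 58.5 to 127 and from 138 to 260 CPM. MYCN ran from 0.552 to 3.52 and from 5.50 to 13.8 CPM (log2 fold change 1.80, SE 0.46, adjusted p = 0.0721). For these 5 members the oviductal libraries of days 6 and 12 lay above all those of days 3 and 18. ADM, SLC1A1 (a glutamate transporter) and IRF1 did the same, from at most 116, 27.4 and 83.3 CPM to at least 124, 34.2 and 84.4 CPM. On these column totals the median oviductal gene also lay 0.22 (log2) higher on days 6 and 12. The gaps between the libraries of RASGEF1B, MET, ADM and IRF1 were smaller than that shift. EGR1 did not follow the rule in these oviductal libraries. Its oviductal medians were 71.1 and 39.5 CPM, with a log2 fold change of -1.37 (SE 0.92, adjusted p = 0.369), and JUNB (-0.14), MAFF (-0.34) and CXCL2 (-0.51) likewise had oviductal log2 fold changes below 0 that were not called. MMP7, DPP4, PROCR and MYC had oviductal values of 0.47, 0.50, 0.52 and 0.44, none called, and each turned sign when only day 3 or only day 18 was the reference.

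The difference between tissues was tested directly, as the endometrial log2 change minus the oviductal one in a single fit of both tissues. It was above 0 in 31 of 31 endometrium-up members and called in 21 of them, where 9.02% of the 16245 genes tested were called above 0. It was below 0 in 82 of 82 oviduct-up members and called in 62, where 8.34% of genes were. The median difference was 2.98 for endometrium-up and -2.17 for oviduct-up members, against -0.02 over all genes. Against day 3 alone, 17 and 41 were called, where 6.25% of genes were above and 5.53% below 0.

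Single steps of the cycle were counted too. In the endometrium 12 endometrium-up members were called higher and 37 oviduct-up members lower on day 6 than on day 3, where 6.69% and 7.73% of genes were. On day 12 against day 18 they were 13 and 35, where 7.1% and 6% of genes were. In the oviduct no member and 0% of genes were called on day 6 against day 3, while on day 12 against day 18 12 endometrium-up members were called lower, 17 oviduct-up members higher and 1 lower, where 9.53% of genes were lower and 5.83% higher. The tissue difference was called for 9 and 29 members from day 3 to day 6, where 2.76% of genes were above and 2.98% below 0, and for 19 and 37 between days 18 and 12, where 5.31% and 4.62% were.

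**Figure D4:**
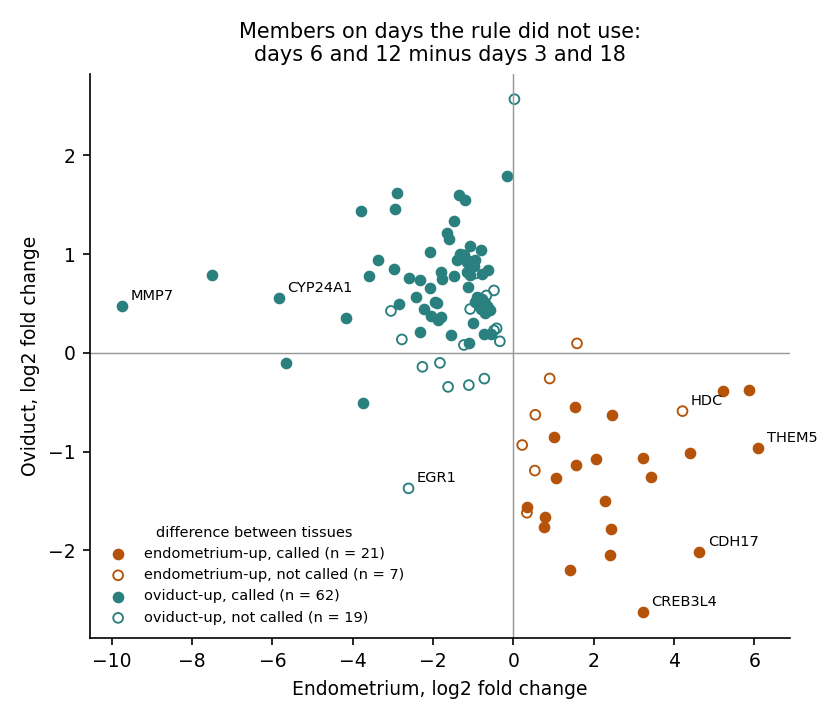
Log2 fold change of days 6 and 12 over days 3 and 18 in the endometrium (x) and oviduct (y) for the 109 members tested in both tissues, filled where the difference between tissues was called. Of 28 endometrium-up members (orange) 27 lie at higher endometrial and lower oviductal values, and of 81 oviduct-up members (teal) 72 lie at lower endometrial and higher oviductal values.

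The largest tissue differences among the genes named by rule were those of MMP7, -10.23 (SE 1.51, adjusted p = 0.000139), and THEM5, 7.03 (SE 1.16, adjusted p = 0.000341). CDH17 and CYP24A1 followed with 6.62 (SE 1.19, adjusted p = 0.000732) and -6.41 (SE 1.15, adjusted p = 0.00067). HDC missed the threshold at 4.77 (SE 1.71, adjusted p = 0.054), and CDH16 and FGFBP1 gave 1.93 (adjusted p = 0.135) and 1.70 (adjusted p = 0.189). EGR1 was the only 1 of the 12 oviduct-up members named by rule whose difference was not called, at -1.26 (SE 1.13, adjusted p = 0.471). Of the members chosen after their values were seen, FZD10 differed by -3.84 (SE 0.48, adjusted p = 3.58e-05) and MET by -2.56 (SE 0.40, adjusted p = 0.000247). TTLL6 and UBXN10, both tied to motile cilia, gave differences of -1.77 (adjusted p = 0.0589) and -0.74 (adjusted p = 0.115). In the endometrium 4 of 8 ciliated cell markers (CCDC40, FOXJ1, RSPH4A and TEKT1) were called lower on days 6 and 12, where 12.5% of all genes were. None was called in the oviduct, where few genes of the table were. The part of ciliated cells in the values of TTLL6 and UBXN10 was not tested.

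Called in both tissues in separate fits, and in opposite ways, was no member on days 6 and 12 against days 3 and 18, and 0.00678% of the 14751 genes tested in both. Against day 18 alone, where 8.59% of genes were called higher and 9.67% lower in the endometrium, 7 endometrium-up members were called higher in the endometrium and lower in the oviduct, where 0.508% of genes were, and these were HDC, CREB3L4, SLC2A8, ENSSSCG00000005276, TLE2, SLC25A1 and TYSND1. In the reverse pattern 10 oviduct-up members were called, where 0.346% of genes were, among them GRB7, RASGEF1B, KIF12, MET and PTPN13. No member was called the same way in both tissues, while 1.82% of genes were. The oviductal direction of HDC turned with the reference, from -2.77 against day 18 to 1.59 against day 3, where it was not called. TLE2, TYSND1 and PTPN13 carry names here because they are in these counts.

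Opposite changes in 2 tissues made many members swap the tissue of the higher level. The mean CPM of endometrium-up members was higher in the endometrium than in the oviduct for 3 of 31 at oestrus and for 30 on day 9. On the days that did not choose them this held for 12 on day 3, for 27 and 25 on days 6 and 12, and for 19 and 11 on days 15 and 18. For oviduct-up members it was higher in the endometrium for 67 of 82 at oestrus and for 1 on day 9, and otherwise for 57 on day 3, for 3 and 13 on days 6 and 12, and for 35 and 52 on days 15 and 18. The counts of both sets moved over to the other tissue by day 6 and had moved back in part by day 18.

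**Figure D5:**
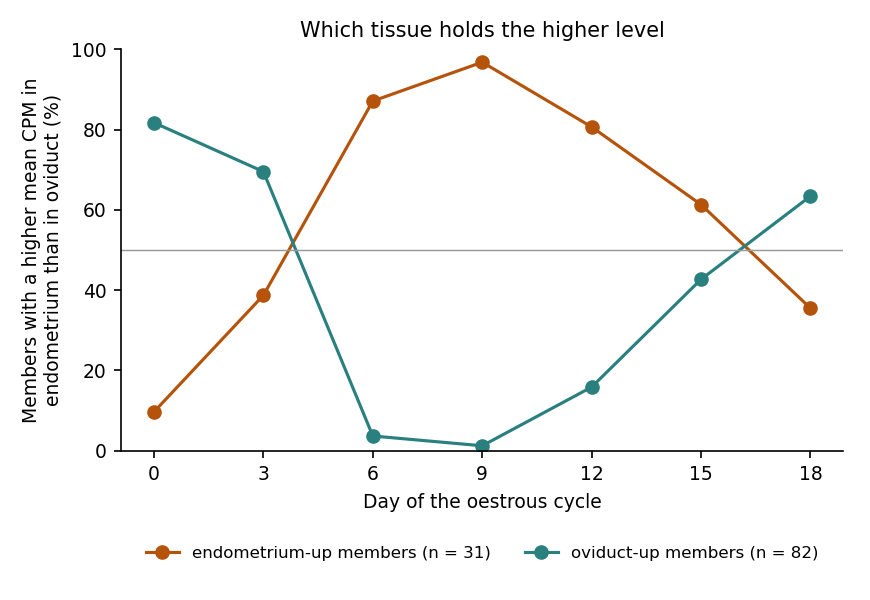
Percent of endometrium-up (orange, n = 31) and oviduct-up members (teal, n = 82) whose mean CPM was higher in the endometrium than in the oviduct, by day. The 2 lines cross between days 3 and 6 and again between days 15 and 18.

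On days 6 and 12, 21 endometrium-up members were called higher and 2 lower in the endometrium than in the oviduct, where 23.6% and 25.1% of all genes were. On days 3 and 18, 4 were called higher and 16 lower, where 21.4% and 23.5% of genes were. For oviduct-up members 1 was called higher and 62 lower on days 6 and 12, and 27 higher and 16 lower on days 3 and 18. The swap was called at both ends for 9 endometrium-up members, where 0.788% of genes swapped that way, and for 12 oviduct-up members, where 0.653% swapped the other way. CREB3L4 stood 3.72 (log2, SE 0.77) higher in the endometrium on days 6 and 12 and 2.11 lower on days 3 and 18 (-2.11, SE 0.65, adjusted p = 0.0106). THEM5 gave 3.25 (SE 0.79) and -3.78 (SE 0.83), and SLC25A1 1.25 (SE 0.30) and -1.42 (SE 0.29). In the other set MMP7 gave -3.82 (SE 1.09) and 6.42 (SE 1.09), CYP24A1 -2.26 (SE 0.83) and 4.15 (SE 0.81), and FZD10 -1.31 (SE 0.34) and 2.52 (SE 0.34), all called. The 4 endometrium-up members called higher in the endometrium on days 3 and 18 were HDC, CDH17, ACOT7 and TLE2. All of them were called higher there on days 6 and 12 too. HDC gave 7.85 (SE 1.05) on days 6 and 12 and 3.08 (SE 0.89) on days 3 and 18.

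In the ovary, where the rule asked for little change between days 0 and 9, no member was called on days 6 and 12 against days 3 and 18, and 0% of the 15409 genes tested were. At an unadjusted p under 0.05, 7 members were higher and 7 lower (2 and 3 of the endometrium-up, 5 and 4 of the oviduct-up), where 10.6% and 5.91% of genes were. Too few counts left 11 endometrium-up and 10 oviduct-up members untested in the ovary. DESeq2 called 2 members, where it called 3.08% of genes higher and 1.07% lower, and edgeR without the first ovarian library of day 12 called 6, where 7.1% and 4.44% of genes were. Against day 18 alone edgeR called 1 higher and 6 lower, where 5.45% and 5.76% of genes were. Ovarian values of day 18 include a library with epithelial markers, and the part of that library in this count was not tested.

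Day 15 held a library that stood apart from the rest of its group. The second endometrial library of day 15 was nearer to the mean of day 12 than to that of day 18 (on log2(CPM + 1)) in 27 of 31 endometrium-up and 75 of 82 oviduct-up members. In the other 3 endometrial libraries of day 15 this held for 7 to 9 and for 19 to 30 members. HDC had 4.72, 103, 5.22 and 3.82 CPM in the 4 libraries, and CREB3L4 had 27.1, 164, 20.3 and 4.16 CPM. CYP24A1 had 513, 6.96, 68.3 and 398 CPM and MET 254, 61.2, 209 and 215 CPM. In the oviduct the second library of day 15 was also the one nearest to day 12, in 23 of 31 and 64 of 82 members, against 12 to 15 and 34 to 40 in the others.

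Between day 12 and day 15 no member was called in the endometrium, and 0% of all genes tested were, while at an unadjusted p under 0.05 9 endometrium-up members were lower and 47 oviduct-up members higher, where 10.6% and 12.9% of genes were. Without the second library of day 15, 18 of 31 endometrium-up members were called lower and 44 of 82 oviduct-up members higher, where 12.8% and 10.6% of all genes were called lower and higher. Leaving out any other library gave 0 or 1. DESeq2 with all libraries called 3 and 35, where 3.03% and 5.7% of genes were called lower and higher. In the oviduct none of the members was called between these days, 8 were without its second library of day 15 (1.16% of genes higher and 0.549% lower), and DESeq2 called 6 (0.439% and 0.155%). In the fit of both tissues the difference between tissues reversed for 1 endometrium-up member, ENSSSCG00000006045, and 3 oviduct-up members (MET, SLC1A1 and PTPN13), where 0.0492% and 0.0862% of genes were called in these directions. With the replicate block they became 0 and 0. They were 17 and 32 without the second endometrial library, where 4.96% and 5.0% of genes were called, and 5 and 13 without the second oviductal one, where 0.733% and 1.19% were. The count of 3 fell to 0 or 1 without each of 20 of the 32 libraries.

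Genes of 2 related lists were set beside the members. Of 28 complement and innate defence genes listed, 19 were found and 17 tested. In the endometrium 11 of these were called lower on days 6 and 12 and 2 higher, where 12.5% and 12.4% of all genes were. Their median log2 fold change was -1.30, against -0.02 over all genes. In the oviduct none was called and the median was 0.36, against -0.01 over all genes. The tissue difference was called below 0 for 11 of 17 (C3, CFB, CFI, IL15, IRF1, LCN2, LTF, PIGR, TLR2, TLR4 and TLR9) and above 0 for IFIT1. Of all genes 8.34% were called below and 9.02% above 0. PIGR, which carries antibodies across epithelia, changed by -1.43 (SE 0.36, adjusted p = 0.0116) in the endometrium and its oviductal log2 fold change was 1.98 (SE 0.56, adjusted p = 0.0804). The antibacterial protein LCN2 gave the widest tissue difference of the list, -6.44 (SE 0.78, adjusted p = 2.80e-05). Leukocyte markers summed to 38.8 CPM or more in the endometrium on days 3 and 18 (median 81.3) and had a median of 45.3 CPM on days 6 and 12, while in the oviduct the medians were 29.0 and 55.8 CPM, and their part in this list was not tested.

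Of 25 genes of steroid receptors and steroid metabolism, 16 were found. In the endometrium 14 were tested, with 4 called higher (FKBP5, HSD11B2, PGRMC1 and PGRMC2) and HSD11B1 called lower, where 12.4% and 12.5% of all genes were. The tissue difference was called above 0 for 6 of 15 and below 0 for 3 (CYP11A1, HSD11B1 and NR3C1), where 9.02% and 8.34% of all genes were. CYP11A1, which opens steroid synthesis, is itself on the list of granulosa and luteal markers, whose sum in the oviduct had the higher median on days 6 and 12 given above. PGR, the progesterone receptor, gave a tissue difference of 1.90 (SE 0.52, adjusted p = 0.0145), with log2 fold changes of -0.42 (SE 0.22) in the endometrium and -2.35 (SE 0.49, adjusted p = 0.0583) in the oviduct. ESR1, the oestrogen receptor, gave 0.97 (SE 0.34, adjusted p = 0.0464). HSD11B2 and HSD11B1, which inactivate and restore cortisol, changed by 3.90 (SE 0.69, adjusted p = 0.00167) and -2.58 (SE 0.38, adjusted p = 0.000738) in the endometrium and gave tissue differences of 3.46 (SE 0.86) and -2.60 (SE 0.48). No gene of this list was a member.

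Another 5 lists were counted in the same way, beside 12.4% of all genes called higher and 12.5% lower in the endometrium. In the endometrium 1 of 15 prostaglandin genes was called higher and 3 lower, 3 and 6 of 16 genes of uterine and oviductal secretion, 4 and 2 of 16 of ion and water transport, 4 and 6 of 19 of growth factors, WNT signals and matrix remodelling, and 1 and 1 of 13 of cell division. The tissue difference was called above and below 0 for 0 and 0, 2 and 3, 2 and 3, 1 and 5, and 0 and 0 of them, beside 9.02% and 8.34% of all genes. No gene of any list was called in the oviduct or the ovary, where few or no genes of the table were.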

How the data were processed

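Per the study's methods, poly-A RNA libraries of gilts' endometrium, oviduct ampulla and ovary were sequenced paired end on an Illumina HiSeq instrument, trimmed and aligned with TopHat2 to the pig genome (Sscrofa10.2, Ensembl annotation). The submitters' processing notes name FastQC, featureCounts, Cufflinks, Cuffdiff and edgeR; the strand setting of the counting is not given in the sources used here, so overlapping antisense genes cannot be told apart.

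The deposited values are raw read counts per Ensembl gene. Symbols matched 11804 of 25322 identifiers. Column names give tissue and day; their numbers differ from those of the labels, so columns served as unnumbered replicates of a group, and "first" or "second" library follows the column names. Of 67 samples in the labels, 1 of endometrium day 12 was not analysed here. No 2 libraries of a group agreed within sampling noise (chi-square per degree of freedom at least 9.1 in 74 pairs).

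The members and lists were chosen with earlier results of these data known. CPM used column totals. Each tissue was fitted with edgeR 4.0.16 (R 4.3.3; TMM, filterByExpr, quasi-likelihood test, Benjamini-Hochberg adjusted p under 0.05) on days 3, 6, 12, 15 and 18, leaving out days 0 and 9, and the tissue difference in 1 fit of both tissues. The scripts were tested on simulated data, with 100 genes changed 4-fold and 100 changed 2-fold. Of these 89 and 53 were recovered in the endometrium, 88 and 44 in the oviduct, 54 and 11 in the ovary and 67 and 21 in the difference. Counts were drawn independently for each gene, so variation shared by the genes of a library was left out. Recovery in the real libraries can therefore be lower, and these counts do not give the sensitivity of the fits. Alternatives were DESeq2 1.42.0 and its size factors, no filter, all 7 days, a replicate block, other reference days, day 15 left out (added after the data were seen) and each library left out.

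Named genes are the first 12 members with a symbol of each direction, ranked by the smaller absolute log2 ratio, members on the lists, and the genes nearest the limits of the rule. Others are said to have been chosen after their values were seen.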

Additional observations from a re-analysis of the deposited data

Results flagged for a closer look

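The change from days 3 and 18 to days 6 and 12 differed between endometrium and oviduct, by the test of the difference itself, in 21 endometrium-up and 62 oviduct-up members. Among the 24 members named by rule it did so in 20. The differences (endometrial minus oviductal log2 change) were 6.62 for CDH17, 2.49 for TP53INP2, 3.58 for ACOT7, 5.83 for CREB3L4, 3.74 for SLC2A8, 7.03 for THEM5, 5.58 for ZNF750, 5.38 for PDZK1 and 3.07 for ADAMTS12. For oviduct-up members they were -10.23 for MMP7, -6.41 for CYP24A1, -1.98 for MYCN, -2.91 for GRB7, -2.70 for MYC, -2.49 for PROCR, -3.37 for DPP4, -4.55 for PKHD1, -3.10 for RASGEF1B, -4.41 for TNS4 and -2.10 for KIF12.

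Single libraries lay far from the rest of their group in 17 cases by Dixon's test over 72 groups of 4 libraries. Each group was 1 member named by rule in the endometrium of day 15 or the oviduct of day 12 or 15. The test flags about 1 group in 20 by chance where values are independent and normally distributed. These groups share libraries and hold CPM, so the 17 cases cannot be set against that rate. Of the 17 cases 8 were in the second endometrial library of day 15, with 103 CPM of HDC (others at most 5.22), 105 of CDH17 (21.7), 164 of CREB3L4 (27.1), 137 of SLC2A8 (28.8), 93.0 of THEM5 (9.64), 21.3 of ZNF750 (2.65) and 9.47 of PDZK1 (0.688). MYCN had 0.186 CPM there, below the limit of detection. The fourth endometrial library of day 15 had 419 CPM of MMP7, with at most 36.5 in the others.

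In the oviduct on day 15 the third library had 5.88 CPM of CDH16, 51.1 of CYP24A1 and 17.7 of DPP4, the fourth 8.62 of PDZK1, the first 991 of EGR1 and the second 8.18 of MYCN. On day 12 the first oviductal library had 26.7 CPM of DPP4 and the fourth 37.3 of PKHD1.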

How the results depend on the processing

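The endometrial counts of 19 and 59 and the tissue difference of 21 and 62 stayed within 1.5 times under the other normalization, filter, test, days in the fit and block, and against day 18 or day 3 alone, except that against day 3 alone 41 oviduct-up members differed. The single steps from day 3 to day 6 and from day 18 to day 12 gave lower counts, down to 12 and 35 in the endometrium and 9 and 29 for the tissue difference. Leaving out 1 library gave 18 to 19, 50 to 67, 19 to 23 and 51 to 68. Shares of all genes are not given here for these ranges. The same holds for the endometrial and tissue difference counts with the other normalization, filter, test, days in the fit and block. It also holds for the tissue difference against day 18 alone. None of these counts is therefore a result about the members. The oviductal counts of 0 became 12 and 21 with DESeq2, 11 and 17 with all 7 days, 10 and 12 without day 15, 12 and 15 against day 18, 1 and 2 against day 3, and 0 to 8 and 0 to 22 without 1 library. The ovarian count of 0 became 2 with DESeq2, 7 against day 18 and 0 to 6 without 1 library. The rule gave 219 members with 0.1 added in place of 1, 96 with TMM, 122 with medians and 105 to 129 without 1 library. The cause of these shifts was not tested. The fit with all 7 days includes the libraries of days 0 and 9, which chose the members. The share of all genes called in that fit is not given here, so its counts are not a result about the members.

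From day 12 to day 15 the endometrial counts of 0 and 0 became 3 and 35 with DESeq2, 2 and 27 with all 7 days, and 0 to 18 and 0 to 44 without 1 library. The oviductal count of 0 became 6 with DESeq2 and 0 to 8 without 1 library. The tissue difference of 1 and 3 became 7 and 22 with DESeq2, 6 and 17 with all 7 days, 0 and 0 with the replicate block, and 1 to 17 and 0 to 32 without 1 library. Shares of all genes are not given here for the fits with all 7 days or for this difference with DESeq2. Those counts are therefore not a result about the members.

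Libraries share a number across tissues in the column names. Deviations from group means were correlated between endometrial and oviductal libraries of the same day. Over 21 pairs of the same number the median was 0.146 and the lowest value -0.015, and 17 were over 0.1. Over 49 pairs of another number the median was -0.076, and 2 were over 0.1. The labels do not state a pairing, so the main fits took all libraries as independent, which these values leave in doubt. As a hint from the data, 19 of 21 endometrial libraries correlated best with the oviductal library of their number. The replicate block used these numbers. In the fit of both tissues it gave 20 and 54 for the tissue difference. In a fit of a single tissue such a block can only tie libraries of different days, which per the study's methods came from different gilts. Same-number libraries of different days had median correlations of -0.013 in the endometrium and -0.020 in the oviduct and the ovary. The block counts of these fits therefore do not check for shared animals. They were 19 and 60 in the endometrium, 0 and 0 in the oviduct and 0 in the ovary. The share of all genes called with the block is not given here.

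Of 3692 values of named genes under alternatives, 3462 kept sign and side of the threshold, 77 lost and 120 gained a call and 33 changed sign. In the oviduct against day 3 alone these were HDC (1.59), FGFBP1 (1.13), ZNF750 (0.17), PDZK1 (0.061), PROCR (-0.16), DPP4 (-0.38), CHGA (-0.044), MAFF (0.97), JUNB (0.69) and CXCL2 (0.56). In the oviduct against day 18 alone they were THEM5 (0.54), MMP7 (-2.24), MYC (-0.41), ETV5 (0.48) and OXTR (-0.91). The replicate block turned CHGA (-0.021), MAFF (0.0015) and JUNB (0.30) in the oviduct. In the endometrium against day 18, CDH16 (-0.21) and MYCN (0.68) turned, and the tissue difference turned against day 3 for FGFBP1 (-0.29) and ETV5 (0.17). Without 1 library the endometrial values of CDH16 ran from -0.74 to 0.82 and of MYCN from -0.43 to 0.11, and the oviductal values of MMP7 from -0.37 to 1.18, DPP4 from -0.00211 to 1.04, MAFF from -0.59 to 0.13, JUNB from -0.37 to 0.63, CXCL2 from -0.72 to 0.29 and OXTR from -1.50 to 1.16.

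Depth limits members near 0.335 CPM, such as HDC, CDH17 and OXTR in the oviduct and DEFB115 in the endometrium. In simulated data with independent genes, 2-fold changes were often missed. In the real oviductal fit larger changes, such as that of CREB3L4, were not called either.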
